A study of Homo sapiens with 40 samples.

Results

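The mitochondrially encoded RNAs are the genes of the deposited table whose symbol starts with MT-, 37 of 62263 genes. They are 13 mRNAs, 2 ribosomal RNAs (rRNAs) and 22 transfer RNAs (tRNAs). All 37 gene IDs were found on the mitochondrial chromosome of the GENCODE v29 annotation (GRCh38). Of the 37, 15 held enough counts to be tested: all 13 mRNAs and both rRNAs, and none of the 22 tRNAs.

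RNA came from BEAS-2B, an immortalised human bronchial epithelial cell line, in a Frac-seq experiment, which sequences total RNA (input) beside the RNA that sediments with polyribosomes (polysome). The 40 libraries formed 8 groups of 5. In each fraction the groups were unstim control, IL13 control, unstim knockdown and IL13 knockdown, and each was sequenced after polyA selection. Per the protocol, the control cells were a constitutive shControl line and the knockdown cells a constitutive shIGF2BP3 line. IGF2BP3 is an RNA-binding protein, and IL-13 a cytokine of type 2 airway inflammation. All cells were grown with 10% FBS and starved overnight at 2%, and stimulated cells received 100 ng/ml IL-13 with harvest 24 h later. Sample titles write siC where the protocol speaks of a stable hairpin line, and the protocol was followed. With a single line for each hairpin, effects of the knockdown and of the line itself cannot be told apart. The labels do not say that replicates were separate cultures, and p-values then measure the spread between these libraries.

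Human mitochondria carry a small circular genome that is transcribed from both strands into long precursors. The precursors are cut, mostly at the tRNAs that stand between the other genes, into mRNAs, rRNAs and tRNAs. The mRNAs encode core subunits of respiratory complexes I, III and IV and of ATP synthase. Most of the mRNAs receive short polyA tails. All are translated inside the organelle by mitochondrial ribosomes built around the 12S and 16S rRNAs. These stand apart from the cytosolic ribosomes that make up most of the polysomes in a cell extract. Nuclear DNA holds many copies of mitochondrial gene fragments, some nearly identical to the originals.

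Input libraries held 14044352 to 40441061 estimated counts and polysome libraries 1816848 to 34082191, with 3 polysome libraries of knockdown cells under 5000000. The targeted gene, IGF2BP3, ranged from 20.7 to 48.8 CPM (counts scaled to a common library size) in input of control cells and from 17.7 to 35.1 CPM in input of cells labelled knockdown. Its ranges overlapped between lines in all 4 settings, so directions given for the line rest on the labels. The keratins KRT8 (746 to 2308 CPM in input), KRT18, KRT7 and KRT19 were present, while the epithelial markers EPCAM, CDH1 and KRT5 had means of at most 0.942 CPM. Among markers of other cells, COL1A1 had a mean of 566 CPM, COL1A2 23.0 CPM and CD14 17.4 CPM, and the defining leukocyte marker PTPRC was at 0 in all 20 input libraries. These are bulk samples, in which fewer cells of a type and less RNA per cell cannot be told apart.

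The MT- RNAs took several times more of the counts in input than in polysome RNA. In unstim control cells their share of the library was 4.43%, 5.40%, 4.14%, 2.94% and 5.09% in the 5 input replicates. In the polysome replicates of the same cells it was 0.487%, 0.666%, 1.11%, 0.411% and 0.500%. The lowest input library stood above the highest polysome library. Group means in input were 4.40% ± 0.961 in unstim control, 4.51% ± 1.76 in IL13 control, 4.71% ± 1.30 in unstim knockdown and 4.69% ± 1.21 in IL13 knockdown (SD, n = 5 each). In polysome RNA they were 0.634% ± 0.281, 0.588% ± 0.231, 0.581% ± 0.345 and 0.609% ± 0.284, in the same order (SD, n = 5 each). Over all 20 libraries of a fraction, the share ran from 2.52% to 7.01% in input and from 0.183% to 1.11% in polysome RNA, without overlap.

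**Figure D1:**
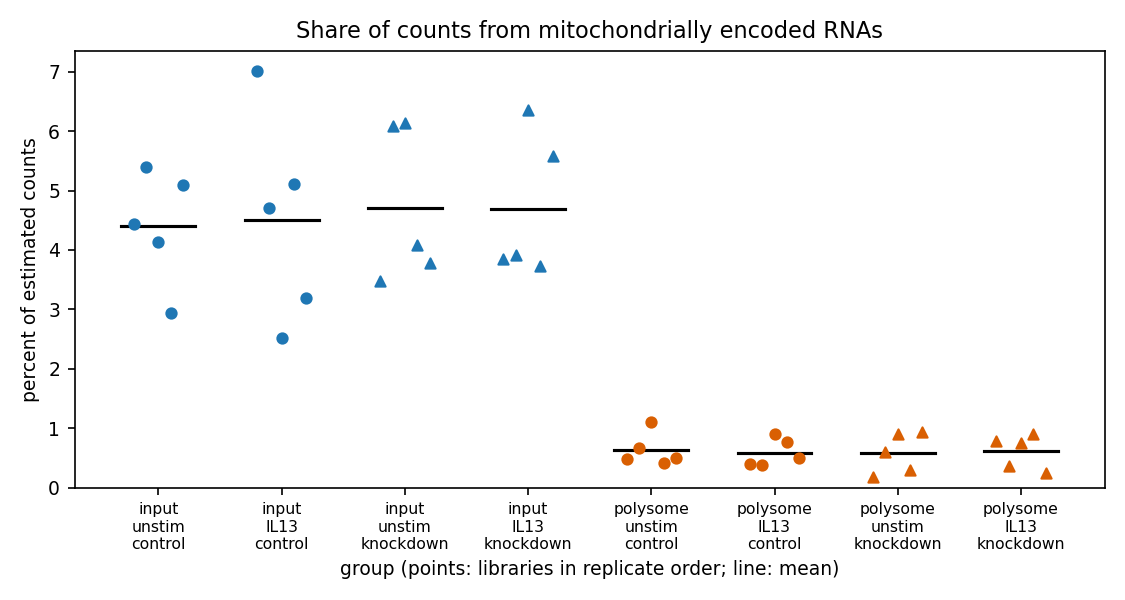
Percent of each library's estimated counts assigned to MT- genes (vertical axis), for the 8 groups of 5 libraries; points are libraries in replicate order and lines are group means. All 20 input libraries lie between 2.52% and 7.01% and all 20 polysome libraries between 0.183% and 1.11%.

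The ratio of the mean input share to the mean polysome share was 6.94 in unstim control, 7.67 in IL13 control, 8.12 in unstim knockdown and 7.70 in IL13 knockdown cells. The 4 input means differed by less than the SD within any group, and so did the 4 polysome means. No test was made of the summed share. The 2 rRNAs made up 17.6% ± 4.60 of the MT- counts in input and 12.9% ± 4.71 in polysome libraries (SD, n = 20 each). Their ranges overlapped, at 12.3% to 28.6% and 7.60% to 22.0%. Libraries were selected for polyA, and how far these counts reflect rRNA levels in the cells was not tested. On the TPM scale, which divides by transcript length, the MT- share was 8.32% ± 2.24 of the TPM held in the table in input and 0.986% ± 0.478 in polysome libraries (SD, n = 20 each).

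Compared per length, MT-CO2, MT-CO3, MT-CO1, MT-ATP6 and MT-ATP8 stood highest in input. Their means were 9196 ± 2106, 8033 ± 2900, 7982 ± 3848, 7565 ± 2106 and 7046 ± 2173 TPM (SD, n = 20). Each of these differed from its neighbour in the order by less than its SD. The other mRNAs followed from MT-ND4L at 4975 ± 1682 TPM down to MT-ND5 at 1711 ± 903 TPM, with MT-ND6 far below at 45.5 ± 46.2 TPM. In polysome libraries the order was different, with MT-CO3 at 1802 ± 958 TPM, MT-CO1 at 1452 ± 583, MT-CO2 at 1038 ± 650 and MT-CYB at 691 ± 256 TPM (SD, n = 20). MT-ND4L, the next mRNA after the highest 5 in input, stood at 232 ± 145 TPM there (SD, n = 20), below every other mRNA except MT-ND2 and MT-ND6.

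Polysome against input was tested gene by gene with edgeR's quasi-likelihood model over all 16735 genes, and a gene was called at a Benjamini-Hochberg adjusted p under 0.05. Of the 15 MT- RNAs tested, 14 were called lower in polysome RNA in each of the 4 settings, and MT-ND6 was called in none. Among all genes tested, the share called lower was 22.8% in unstim control, 22.6% in IL13 control, 22% in unstim knockdown and 23.3% in IL13 knockdown cells. The median log2 fold change of the 13 mRNAs was -2.97, -3.16, -3.27 and -3.23 in these settings, where that of all genes tested was -0.20, -0.19, -0.20 and -0.23. Polysome libraries lay below input libraries without overlap for 14, 13, 14 and 14 of the 15 members, against 15.6%, 16.2%, 19.7% and 21.5% of all genes tested. The 4 settings share no library, but the groups entered 1 model with 1 estimate of the spread. Fold changes compare scaled counts, relative to the other RNAs of each library. They do not give the part of each RNA's molecules that was in polysomes.

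**Figure D2:**
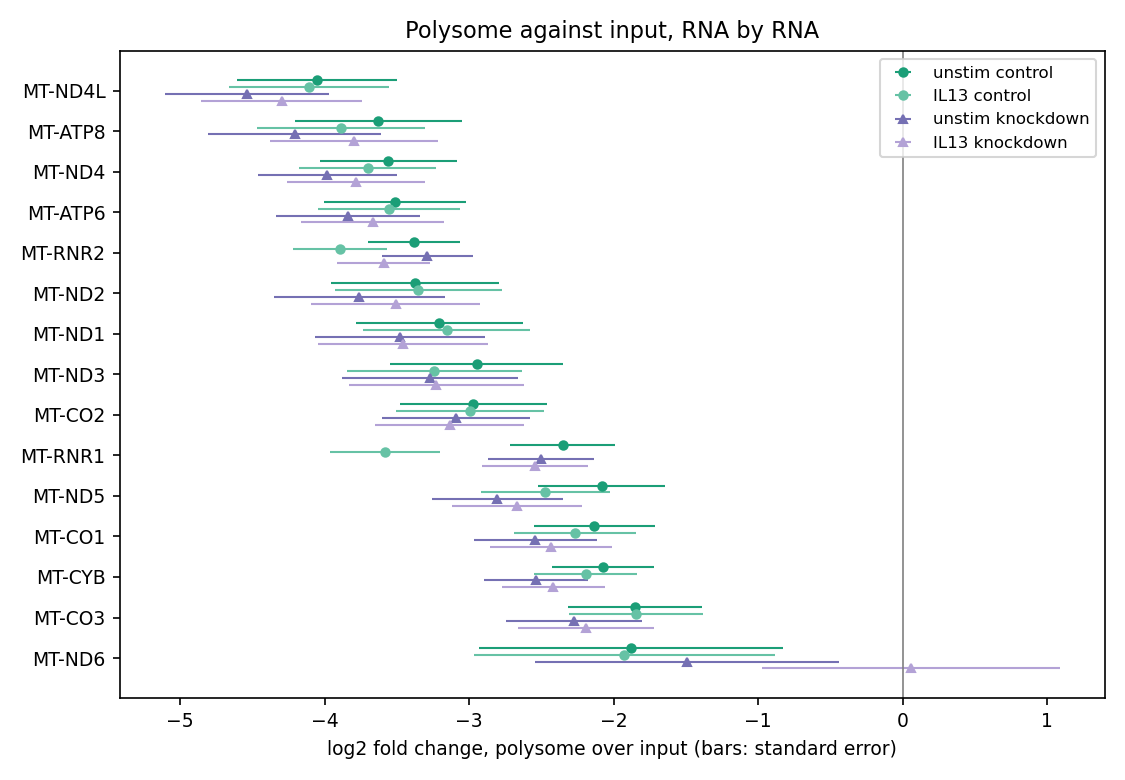
Log2 fold change of polysome over input (horizontal axis) for the 15 MT- RNAs tested, ordered by their mean, in the 4 settings of line and treatment; bars are standard errors. MT-ND4L lies lowest in all 4 settings, and MT-ND6 reaches 0.06 in IL13 knockdown cells with bars that span 0.

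The 2 rRNAs come from the start of the main transcription unit, and how well polyA selection captured them was not tested. MT-RNR2 (ENSG00000210082.2), the 16S rRNA of the large mitochondrial ribosomal subunit, measured 5994, 5294, 5534, 5073 and 5022 CPM in input of unstim control cells. In polysome RNA it measured 430, 586, 783, 237 and 550 CPM. Every input library was at least several times above every polysome library. Its log2 fold changes were -3.38 ± 0.318, -3.89 ± 0.325, -3.29 ± 0.317 and -3.59 ± 0.321 (SE) in unstim control, IL13 control, unstim knockdown and IL13 knockdown cells, with edgeR adjusted p-values from 6.92e-12 to 1.48e-10. MT-RNR1 (ENSG00000211459.2), the 12S rRNA of the small subunit, measured 1976, 1239, 1239, 1330 and 1220 CPM in input and 231, 256, 313, 191 and 380 CPM in polysome RNA of unstim control cells. MT-RNR1 had log2 fold changes of -2.35 ± 0.364, -3.58 ± 0.383, -2.50 ± 0.366 and -2.55 ± 0.367 (SE). The IL13 control value stood apart from the other 3, and without input replicate 1 of that group it was -2.85.

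Complex I (NADH dehydrogenase) takes 7 of the 13 mRNAs, MT-ND1 to MT-ND6 with MT-ND4L. Of these MT-ND4L and MT-ND4 lie on 1 mature mRNA with overlapping reading frames, as do MT-ATP8 and MT-ATP6, which encode membrane subunits of ATP synthase. These 4 reading frames had the 4 lowest mean log2 fold changes in polysome RNA, so the stretches where they overlap are shown, read from the GENCODE v29 transcripts (GRCh38, plus strand, 5′ to 3′). Capitals mark the start codon of the downstream frame and the stop codon of the upstream one, and 9 bases are given on either side of the overlap.
MT-ATP8 and MT-ATP6, chrM:8518-8581: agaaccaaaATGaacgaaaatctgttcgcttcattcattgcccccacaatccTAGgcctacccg
MT-ND4L and MT-ND4, chrM:10751-10775: cctactccaATGcTAAaactaatcg
The first pair shares 46 bases (8527 to 8572) and the second 7 bases (10760 to 10766), where the start codon runs into the stop codon. MT-ND4L is annotated as 297 bases and MT-ATP8 as 207, the shortest mRNA of the 13, and MT-ND4 and MT-ATP6 as 1378 and 681. Because both frames of a pair lie on 1 RNA, their values are not those of separate molecules, and how reads that span both were assigned is not given in the sources used here.

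MT-ND4L (ENSG00000212907.2) measured 511, 694, 562, 293 and 495 CPM in input of unstim control cells. In polysome RNA it measured 32.6, 36.2, 52.0, 19.1 and 13.6 CPM. No polysome library came near the lowest input library, here or in the other 3 settings. Its log2 fold changes were -4.05 ± 0.553, -4.11 ± 0.553, -4.54 ± 0.570 and -4.30 ± 0.558 (SE), the lowest of the 15 members in each setting, with edgeR adjusted p-values from 3.96e-08 to 1.63e-07. MT-ND4 (ENSG00000198886.2) measured 4464, 5129, 4345, 2323 and 4350 CPM in input and 325, 381, 620, 220 and 202 CPM in polysome RNA of unstim control cells. It fell in all 4 settings, with log2 fold changes between -3.98 and -3.56. The depth behind the low values differed: the polysome library with the fewest MT-ND4L counts held 11.

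MT-ATP8 (ENSG00000228253.1) measured 389, 455, 354, 308 and 394 CPM in input and 27.6, 41.5, 62.2, 10.4 and 11.4 CPM in polysome RNA of unstim control cells. MT-ATP6 (ENSG00000198899.2) measured 3671, 3905, 2811, 2327 and 3257 CPM in input and 280, 321, 520, 147 and 131 CPM in polysome RNA. For both, input and polysome libraries were apart in each of the 4 settings. MT-ATP8 fell by 3.63 to 4.21 and MT-ATP6 by 3.51 to 3.84 on the log2 scale, and the edgeR adjusted p in unstim control cells was 2.79e-06 for MT-ATP8 and 2.7e-07 for MT-ATP6.

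The remaining complex I mRNAs of the same strand were MT-ND1 (ENSG00000198888.2), MT-ND2 (ENSG00000198763.3), MT-ND3 (ENSG00000198840.2) and MT-ND5 (ENSG00000198786.2). Over the 20 input and 20 polysome libraries, MT-ND1 ran from 968.5 to 3435 and from 20.9 to 392 CPM. MT-ND2 ran from 968 to 2926 and from 10.5 to 295 CPM, and MT-ND3 from 344 to 679 and from 3.49 to 109 CPM. These 3 mRNAs had no overlap between the fractions, and their log2 fold changes over the 4 settings lay between -3.48 and -3.16, -3.76 and -3.35, and -3.27 and -2.95. MT-ND5, the longest mRNA at 1812 bases, ran from 532 to 4412 CPM in input and from 222 to 735 CPM in polysome RNA, and its ranges overlapped in IL13 control cells. MT-ND5 had log2 fold changes of -2.08 ± 0.440, -2.47 ± 0.446, -2.81 ± 0.453 and -2.67 ± 0.450 (SE).

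Complex IV (cytochrome c oxidase) takes its 3 catalytic core subunits from MT-CO1, MT-CO2 and MT-CO3, and complex III its cytochrome b from MT-CYB. MT-CO1 (ENSG00000198804.2), the mRNA with the most counts, measured 5567, 12390, 6808, 4900 and 14180 CPM in input of unstim control cells. In polysome RNA it measured 1175, 1935, 3181, 1652 and 2055 CPM. The input libraries fell into high and low ones, yet the lowest exceeded the highest polysome library. MT-CO1 had log2 fold changes of -2.13 ± 0.418, -2.27 ± 0.420, -2.54 ± 0.425 and -2.43 ± 0.423 (SE). MT-CO3 (ENSG00000198938.2) measured 3387, 4683, 3641, 2782 and 5654 CPM in input and 1107, 1091, 2019, 858 and 508 CPM in polysome RNA of unstim control cells. It had the smallest decreases among the 14 RNAs called, from -2.28 to -1.84 on the log2 scale, with an edgeR adjusted p between 0.000157 and 0.00143.

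MT-CYB (ENSG00000198727.2) measured 2355, 3950, 2640, 2056 and 4438 CPM in input and 502, 661, 1089, 610 and 801 CPM in polysome RNA of unstim control cells. Its groups did not overlap, and its log2 fold changes lay between -2.54 and -2.08. MT-CO2 (ENSG00000198712.1) ran from 2838 to 6105 CPM over the input libraries and from 71.8 to 1083 CPM over the polysome libraries. It fell in all 4 settings, with log2 fold changes between -3.14 and -2.97, lower than those of MT-CO1 and MT-CO3 in each setting. Differences between RNAs were not tested.

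MT-ND6 (ENSG00000198695.2) is the only mRNA of the opposite strand, where the annotation has the other 12 on the plus strand. In input of unstim control cells it measured 31.7, 2.27, 29.4, 11.9 and 3.83 CPM, and in polysome RNA 10.0, 1.82, 1.10, 7.53 and 1.00 CPM. In IL13 control cells it measured 44.4, 7.93, 0.961, 3.82 and 48.5 CPM in input and 0.758, 2.42, 13.0, 8.14 and 2.71 CPM in polysome RNA. High and low libraries stood side by side within each group, and the fractions overlapped in all 4 settings. Its log2 fold changes were -1.88 ± 1.05, -1.93 ± 1.04, -1.49 ± 1.05 and 0.06 ± 1.03 (SE), with edgeR adjusted p-values of 0.158, 0.144, 0.280 and 0.974. With standard errors of 1.03 or more, a decrease of the size seen for MT-CO3 was not detectable at this spread. Counts of MT-ND6 ran from 26 to 1108 per input library and from 3 to 442 per polysome library. How well polyA selection captured MT-ND6, beside the other 12 mRNAs, was not tested.

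**Figure D3:**
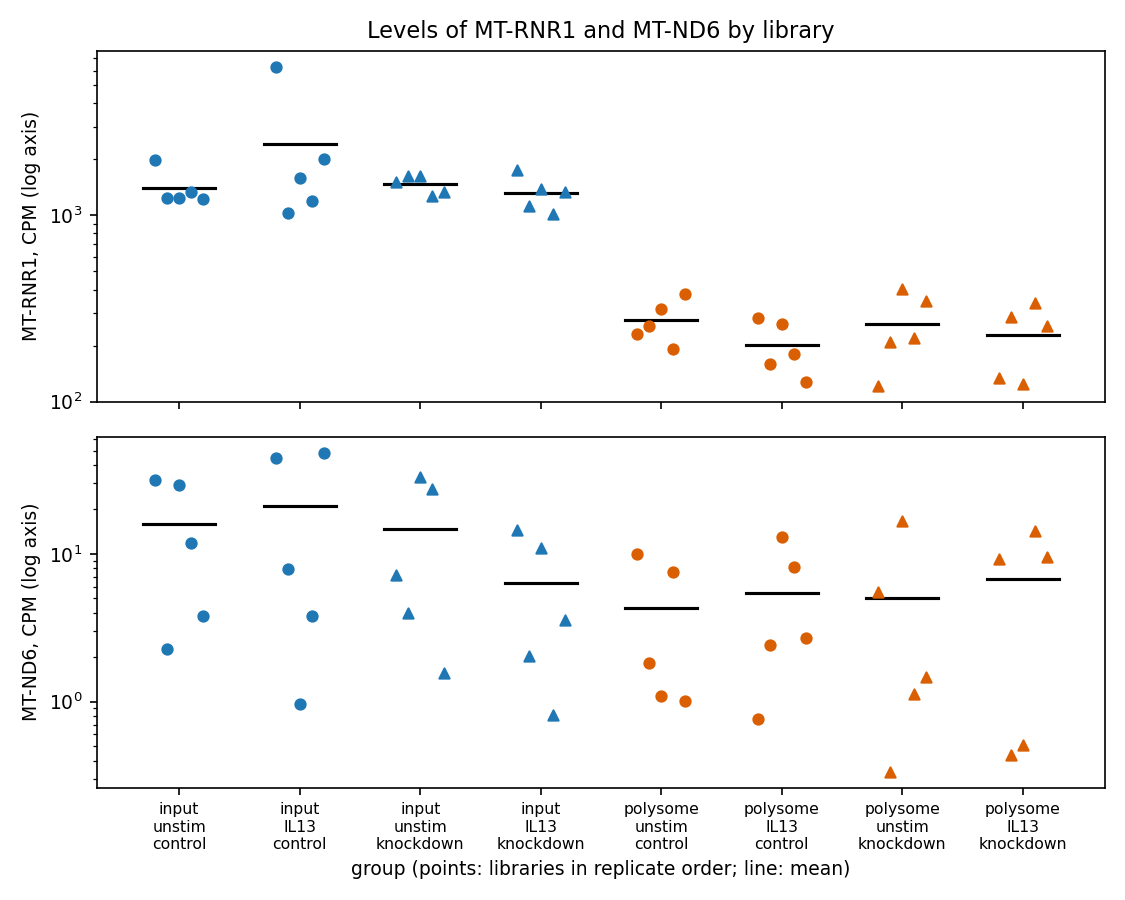
CPM of MT-RNR1 (top) and MT-ND6 (bottom) on log axes, by group; points are libraries in replicate order and lines are group means. MT-RNR1 in input lies between 1021 and 2015 CPM in all libraries but IL13 control replicate 1, at 6292 CPM, while MT-ND6 spreads from 0.812 to 48.5 CPM in input.

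The tRNAs, annotated as 59 to 75 bases, held few counts in both fractions. All libraries were selected for polyA, and how far the counts reflect tRNA levels in the cells was not tested. Together the 22 tRNAs held 448 estimated counts in the 20 input libraries and 37 in the 20 polysome libraries, and 17 and 11 of them had any count. In input, MT-TV (valine) had a mean of 5.40 counts per library, MT-TL1 (leucine) 4.90 and MT-TM (methionine) 4.35. The most tRNA counts in 1 library were 106, in IL13 control input replicate 3. None of the tRNAs passed the filter on low counts. Without a filter beyond 1 count, edgeR called MT-TL1 lower in polysome RNA of unstim control cells, with a log2 fold change of -5.71 (adjusted p = 0.00671). In IL13 control cells it then called MT-TL1, MT-TV, MT-TC and MT-TE lower, with adjusted p-values between 0.0174 and 0.0351. These calls rest on a few counts per library.

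Because the decreases differed in size, the make-up of the MT- counts differed between fractions. As shares of a fixed total these values move against each other, and they are described with no test. MT-ND4 made up 10.4% ± 1.43 of the MT- counts in input and 5.03% ± 1.10 in polysome libraries (SD, n = 20 each), MT-ND4L 1.34% ± 0.279 and 0.441% ± 0.168, MT-ATP6 7.69% ± 0.723 and 4.00% ± 1.06, and MT-ATP8 0.972% ± 0.160 and 0.398% ± 0.174. For these 4 the polysome libraries lay below the input libraries without overlap in each setting. MT-CYB went from 6.96% ± 0.855 to 10.4% ± 1.38 and MT-CO1 from 20.7% ± 4.72 to 30.4% ± 3.51 (SD, n = 20), and all 20 polysome libraries were above the input median for both. MT-CYB was apart in 4 settings and MT-CO1 in 3. MT-CO3, at 9.60% ± 0.944 and 15.7% ± 3.80, was apart in 1 setting, with 17 of 20 polysome libraries above the input median. MT-RNR1 kept a like share, 3.87% ± 1.86 and 4.43% ± 2.18, with ranges that overlapped in every setting. These RNAs were singled out after their values were seen.

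**Figure D4:**
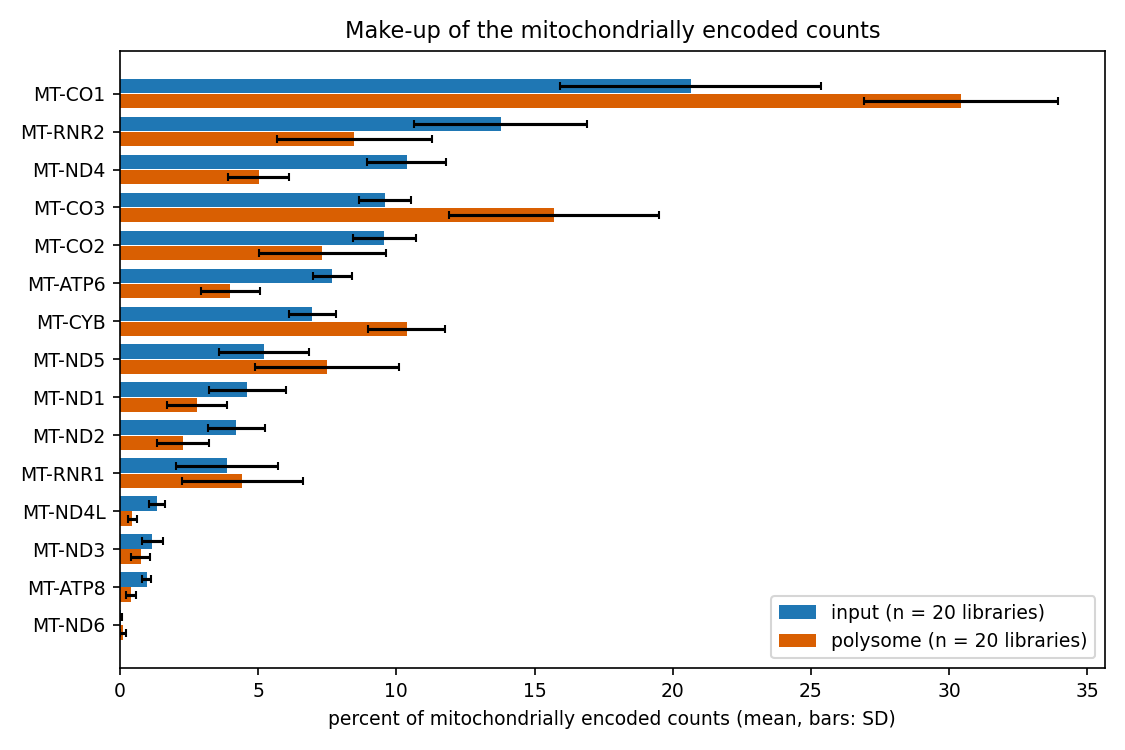
Share of the MT- counts taken by each of the 15 RNAs tested (horizontal axis, percent), as means with SD bars over 20 input and 20 polysome libraries. MT-CO1, MT-CO3 and MT-CYB have longer bars in polysome libraries, and MT-ND4, MT-ATP6 and MT-RNR2 longer bars in input.

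Most members also varied more between polysome than between input libraries. On the log2 scale, the share of counts taken by all MT- RNAs had an SD within groups, pooled over the 4 groups of a fraction, of 0.43 in input and 0.77 in polysome libraries. The SD rose from 0.26 to 1.63 for MT-ND3, from 0.31 to 1.54 for MT-ATP8 and from 0.39 to 1.46 for MT-ND2, whereas that of MT-CO1 was 0.74 and 0.70. MT-ND5 went the other way, from 0.92 to 0.50, and MT-RNR1 had 0.57 in both. These spreads were not tested against each other. The 3 libraries under 5000000 counts are among the polysome libraries. Without them, a choice made after seeing the data, the polysome SD was 0.65 for all MT- RNAs, 1.48 for MT-ND3, 1.41 for MT-ATP8, 1.22 for MT-ND2 and 0.58 for MT-CO1.

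A nuclear copy bears on MT-ATP6. MTATP6P1, a pseudogene on chromosome 1 (633696 to 634376, plus strand, GENCODE v29), has the same 681 bases with 10 differences, and up to 141 bases in a row are identical. A window of 30 bases with 2 of the differences is shown, positions counted from 1 at the first base of MT-ATP6, with the differing bases C129T and A151C in capitals.
MT-ATP6, bases 122 to 151: gactaatCaccacccaacaatgactaatcA
MTATP6P1, bases 122 to 151: gactaatTaccacccaacaatgactaatcC
Its counts were 584 ± 147 CPM in input and 41.9 ± 23.6 CPM in polysome libraries (SD, n = 20 each). That was 17.6% ± 1.03 of the MT-ATP6 level in input, between 15.5% and 19.6%, and 15.9% ± 2.10 in polysome libraries. Its log2 fold changes of -3.79, -3.76, -3.92 and -3.73 were close to those of MT-ATP6. How reads from stretches identical in both genes were divided between them is not given in the sources used here, so the level of each is uncertain.

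Of 404 such nuclear copies in the table, 8 were tested and 7 were called lower in polysome RNA in each setting, where 22% to 23.3% of all genes were. The exception was MTCO1P12 in unstim control cells (edgeR adjusted p = 0.395) and MTCO3P12 in the other 3 settings (0.143, 0.0873 and 0.3). MTND2P28, 98.4% identical to MT-ND2 over 1042 bases, had 21.5 ± 8.79 CPM in input, 1.23% of its parent. MTCO3P12, with 98.2% identity over 547 bases of MT-CO3, had 0.350 ± 0.214 CPM (SD, n = 20). Thus copies of similar likeness took very unequal shares of counts. All copies together came to 1.44% ± 0.201 of the MT- counts in input and 0.695% ± 0.198 in polysome libraries (SD, n = 20).

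Effects of the line were asked as cells labelled knockdown minus control, within each fraction and treatment. No MT- RNA was called by edgeR: 0 of 15 in unstim input, where 0.012% of all genes were called, and 0 of 15 in IL13 input, where 0% were. The count was also 0 in unstim polysome (0.0299% of all genes), IL13 polysome (0.0896%), and with both treatments averaged in input (0.406%) and in polysome RNA (1.38%). The median log2 difference of the 15 was 0.12 and 0.10 in unstim and IL13 input and -0.22 and 0.02 in unstim and IL13 polysome RNA. All genes tested had medians between -0.04 and -0.01 in these comparisons.

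Effects of IL-13 were asked as IL13 minus unstim within each fraction and line. Again no MT- RNA was called by edgeR, in input of control cells (0.0777% of all genes called) or knockdown cells (0.0837%), in polysome RNA of control cells (0.125%) or knockdown cells (0.0956%), or averaged over lines in input (0.149%) and polysome RNA (0.209%). The median log2 difference of the 15 was 0.08 and 0.01 in input of control and knockdown cells and -0.06 and 0.12 in polysome RNA.

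Whether an effect shifted between the fractions was asked with interaction terms. No member was called by edgeR for a shift of the line effect in unstim (0% of all genes) or IL13 cells (0.00598%), or for a shift of the IL-13 effect in control (0%) or knockdown cells (0%). Nor was any called for a difference of the IL-13 effect between lines in input (0%) or polysome RNA (0%). Over these 18 comparisons of line, IL-13 and their interactions there were 270 tests of members, of which 4 had an unadjusted p under 0.05, and the Wald test of DESeq2 called 0 as well.

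For the 13 members other than MT-RNR1 and MT-ND6, the 52 log2 differences between lines or with IL-13 in input ran from -0.20 to 0.28, with standard errors between 0.29 and 0.56. In polysome RNA they ran from -0.50, for MT-ND5 between lines in unstim cells, to 0.34, for MT-ND4L with IL-13 in knockdown cells. Most of these differences were smaller than their standard error, and the smallest unadjusted edgeR p was 0.493 in input and 0.216 in polysome RNA. MT-ND6 had the largest difference, -1.73 ± 1.03 (SE) between lines in IL13 input, with an edgeR adjusted p of 1 and overlapping groups.

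**Figure D5:**
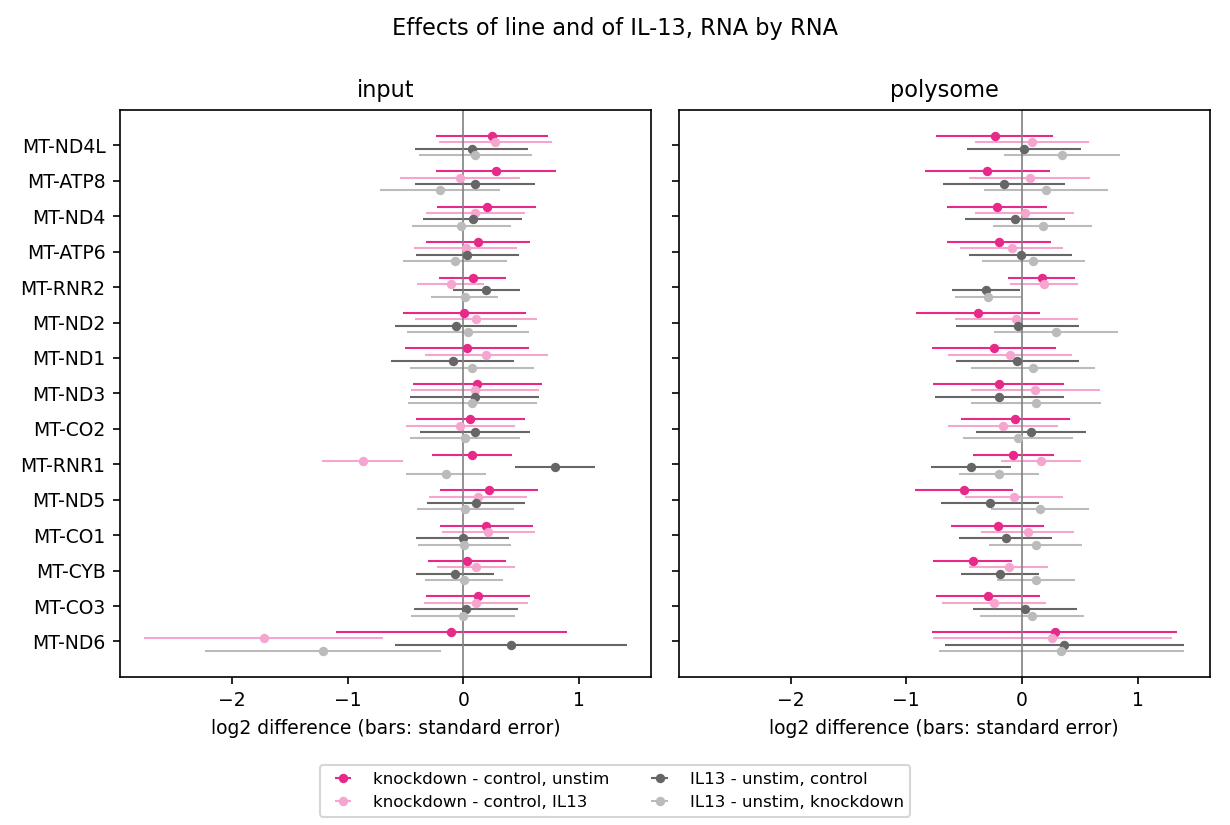
Log2 differences between lines (knockdown minus control) and with IL-13 (IL13 minus unstim) for the 15 MT- RNAs, in input (left) and polysome RNA (right); bars are standard errors. Most points lie within 1 standard error of 0, and those farthest from it are MT-RNR1 and MT-ND6 in input.

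The 4 unadjusted p-values under 0.05 all belonged to MT-RNR1, which was looked at for that reason. In input of IL13 control cells it measured 6292, 1033, 1584, 1199 and 2015 CPM, and in input of IL13 knockdown cells 1764, 1130, 1386, 1021 and 1335 CPM. Replicate 1 of the control cells stood far above every other library, and the rest of the 2 groups overlapped. The line difference in IL13 input was -0.87 ± 0.349 (SE), and the IL-13 difference in control input was 0.79 ± 0.348 (SE). The shift of the line effect in IL13 cells was 1.04 ± 0.491 and that of the IL-13 effect in control cells -1.23 ± 0.492 (SE). The unadjusted p of edgeR was 0.0171, 0.0288, 0.0416 and 0.0168 for these 4 values in turn, and the adjusted p was 1 for each. Without replicate 1 of IL13 control input, these 4 values were -0.13, 0.06, 0.30 and -0.50, each with an edgeR adjusted p of 1. In that library MT-RNR2 also stood highest, at 9896 CPM where the other 4 of its group lay between 5167 and 5387.

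The nuclear genes that serve the MT- RNAs behaved less uniformly between fractions. Of 33 genes for transcription, processing and decay of mitochondrial RNA, 11 were called higher and 7 lower in polysome RNA of unstim control cells by edgeR, with a median log2 fold change of -0.27. Among all genes tested, 17.4% were called higher in unstim control, 16.7% in IL13 control, 16.4% in unstim knockdown and 16% in IL13 knockdown cells, beside the 22.8%, 22.6%, 22% and 23.3% called lower. SSBP1, the mitochondrial single-stranded DNA-binding protein, rose by 1.96 ± 0.182 and HSD17B10, a subunit of mitochondrial RNase P, by 1.76 ± 0.192 (SE). FASTKD5, which is needed for maturation of mRNAs without flanking tRNAs, fell by 1.23 ± 0.197 (SE). In the other 3 settings 10, 10 and 11 were called higher and 8, 6 and 8 lower. With only the libraries compared, the 7 and 6 called lower in unstim control and unstim knockdown cells were 3 and 3, and without polysome replicate 5 of unstim control cells the 7 were 4.

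Of 12 mitochondrial translation factors, 6 were called higher and 1 lower in each of the 4 settings, where 16% to 17.4% of all genes were called higher and 22% to 23.3% lower. The list's medians ran from 0.36 to 0.60. The elongation factor TSFM rose by 1.98 ± 0.155 (SE, edgeR adjusted p = 1.34e-12) in unstim control cells. TACO1, the activator of MT-CO1 translation, rose by 1.70 ± 0.181 and the recycling factor MRRF by 1.04 ± 0.131 (SE). Of 74 nuclear-encoded subunits of complexes I, III and IV and ATP synthase, the partners of the mitochondrial products, 26 were called higher and 14 lower in unstim control cells, against 17.4% and 22.8% of all genes, with a median of 0.01. NDUFS3 and NDUFAB1 of complex I rose by 1.51 ± 0.168 and 1.45 ± 0.155 and NDUFS1 fell by 1.78 ± 0.172 (SE). In IL13 control, unstim knockdown and IL13 knockdown cells 26, 26 and 24 were called higher and 16, 17 and 25 lower. No gene of the 3 lists was called for line or IL-13.

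The nuclear RNAs MALAT1 and NEAT1, which are largely retained in the nucleus, were also lower in polysome RNA. MALAT1 had log2 fold changes of -1.88, -2.04, -1.61 and -1.69 and NEAT1 of -2.60, -2.03, -1.94 and -2.19 in unstim control, IL13 control, unstim knockdown and IL13 knockdown cells, each called by edgeR. In every setting both were less reduced than the median of the 13 MT- mRNAs, though not than each mRNA. In unstim control cells NEAT1 was more reduced than MT-CO3 (-1.85), MT-CYB (-2.08), MT-ND5 (-2.08) and MT-CO1 (-2.13). MT-CO3 was less reduced than both RNAs in unstim control and IL13 control cells. In knockdown cells all MT- mRNAs called were more reduced than both. Of the 4 fibroblast markers, COL1A1 and COL1A2 could be tested. Both were called lower in each setting, as were 22% to 23.3% of all genes tested. Their median log2 fold change was -2.77, -2.64, -2.68 and -2.73. The defining markers PDGFRA and DCN had means of 0.0268 and 0.00690 CPM in input. The 1 leukocyte and the 1 endothelial marker tested, CD14 and CDH5, were called in no setting. What part the genes of these lists have in the result was not tested. How much of the MT- RNA in polysome libraries was carried over from other material, or bound to mitochondrial ribosomes, was not tested.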

How the data were processed

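Per the labels' protocols, RNA was extracted with TRIzol LS, treated with DNase, selected for polyA and made into stranded paired-end libraries (2 kits are named). The submitters' processing notes name MultiQC, Trimmomatic, Salmon and DESeq2, with the genome build and annotation not given in the sources used here. The deposited table holds estimated counts, with decimals and not scaled, and TPM scaled by the authors for length and depth, per the file headers. TPM were used only for levels and shares. Symbols came from a table of gene names, which matched 62246 of 62263 IDs.

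The design had assumed counts, so the expected counts were rounded. The filter filterByExpr, given the 8 groups, passed 16735 genes, which hold 99.91% or more of each library's counts. CPM were computed on TMM-scaled library sizes. edgeR 4.0.16 (R 4.3.3) fitted 8 group means over 40 libraries with 32 residual degrees of freedom. Tests were two-sided, and Benjamini-Hochberg adjustment ran over the 16735 genes in each of 22 comparisons. DESeq2 1.42.0 was an alternative, with other scalings, filters, subsets of libraries, replicate blocks and leaving out each library. All 13 mRNAs and both rRNAs were named, with the 3 called genes of smallest p per nuclear list in unstim control cells. The members and lists were chosen with earlier results of these data known. The procedure was run on simulated data in which far fewer genes differed than between these fractions, and no result rests on that run. Replicates were compared in 80 pairs, and the closest pair still differed beyond counting noise (chi-square 16.18 per degree of freedom).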

Additional observations from a re-analysis of the deposited data

Results flagged for a closer look

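Each of 136 sets of 5 libraries (8 groups for the share of all MT- RNAs, the share of the rRNAs and the CPM of the 15 RNAs tested) was searched for a library far from the other 4 by Dixon's test, which marks about 1 in 20 sets by chance, here 6.8. It marked 6. Input replicate 1 of IL13 control cells was marked for the rRNA share, at 1.71% of counts where the others lay between 0.627% and 0.742%. The same library was marked for MT-RNR1, at 6292 CPM with the others from 1033 to 2015, and for MT-RNR2, at 9896 CPM with the others from 5167 to 5387. Input replicate 1 of unstim control cells was marked for MT-RNR1, at 1976 CPM with the others from 1220 to 1330. Input replicate 4 of unstim control cells was marked for MT-ND4, at 2323 CPM below the others at 4345 to 5129. Polysome replicate 4 of IL13 knockdown cells was marked for the rRNA share, at 0.102% of counts with the others from 0.0554% to 0.0645%.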

How the results depend on the processing

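The number of members called stayed within 1.5 times its value in all 198 alternative and 320 leave-one-library-out results: 14 lower in polysome RNA in each setting and 0 for line, IL-13 and their interactions, except that without a filter beyond 1 count the former was 15 in unstim control and 18 in IL13 control cells, by MT-TL1 in both and MT-TV, MT-TC and MT-TE in the latter. The median log2 fold change of the 13 mRNAs ran from -3.89 to -2.82 over the alternatives. DESeq2 size factors moved the median of all genes by at most 0.081. The replicate numbers did not pair the samples throughout. Same-numbered libraries all correlated above 0.1 in only 1 pair of groups, and not in input and polysome of the same cells. Between input and polysome, the median same-numbered correlation was 0.46 in unstim control cells, with 4 of 5 above 0.1. It was -0.107 in IL13 control, -0.169 in unstim knockdown and 0.123 in IL13 knockdown cells. With a replicate block, by number or by culture, 14 members were still called lower in each setting. With the block by culture, MT-ND6 in IL13 knockdown cells had a log2 fold change of -0.401 (edgeR adjusted p = 0.84) in place of 0.06. The cause of that change was not tested. Leaving out 1 library, this MT-ND6 value ran from -0.512 to 0.6. As shares of the deposited TPM, the MT- means for input were 8.1%, 7.6%, 8.789% and 8.788%, and for polysome libraries 1.022%, 0.9508%, 0.9501% and 1.022%, of unstim control, IL13 control, unstim knockdown and IL13 knockdown cells, since TPM divide by length and the table holds 84.1% of a full set on average. Leaving out 1 library, the count shares ran from 3.88% to 5.02% in input and from 0.491% to 0.698% in polysome libraries. Counts of all genes called moved by over 1.5 times in 58 alternatives and 43 times on leaving out 1 library, among the alternatives none of them polysome against input: with DESeq2's Wald test calls for the line, averaged over treatments, came to 150 (input) and 532 (polysome) where edgeR gave 68 and 231, and to 224 and 39 with only the 20 libraries of a fraction. Nuclear-encoded subunits called lower in IL13 knockdown cells were 15 in place of 25 with the libraries of at least 5000000 counts, and in unstim control cells 9 in place of 14 with only the libraries compared. Few counts limit the tRNAs (at most 106 in a library), and the spread between libraries limits MT-ND6.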

Other observations

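In input, MT-CO1 fell into separate high and low libraries within every group. It lay between 12390 and 15960 CPM in 8 libraries and between 3322 and 7808 CPM in the other 12, and each of the 4 input groups held 2 of the high libraries. MT-CYB, MT-CO3 and MT-ND5 put the same 8 libraries on top: 3950 CPM or more against at most 2775 for MT-CYB, 4683 or more against at most 3748 for MT-CO3, and 3196 or more against at most 2175 for MT-ND5. The share of all MT- RNAs in the counts separated the same libraries, at 5.09% to 7.01% against 2.52% to 4.70%. That share contains the counts of MT-CO1, MT-CYB, MT-CO3 and MT-ND5, so it is not a separate observation. Taken singly, the other 11 RNAs tested overlapped between these libraries, among them MT-CO2 (4261 to 6105 against 2838 to 4568 CPM) and MT-ND1 (1330 to 2311 against 968 to 3435 CPM). The 8 libraries were unstim control replicates 2 and 5, IL13 control replicates 1 and 4, unstim knockdown replicates 2 and 3, and IL13 knockdown replicates 3 and 5. Their depth, 14044352 to 40441061 counts, spanned that of the other 12, 15533925 to 34260970. The split was noticed in these values, so no test was made of it, and no label names a batch that it follows.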
